A study of Drosophila melanogaster with 12 samples.

Results

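Transcripts were compared between eye imaginal discs that misexpressed the transcription factor Runt and discs that misexpressed Runt G163R, the same protein with an amino acid change, in Drosophila melanogaster. The comparison rests on the 6 arrays whose titles name a cross of ro-Gal4 to a runt transgene, of 12 arrays in the series. The Runt group, of genotype w; ro-Gal4/UAS-Run, and the Runt G163R group, of genotype w; ro-Gal4/UAS-Run[G163R], had 3 arrays each. All 6 samples came from wandering larvae, from crosses kept at room temperature; antennae had been cut away, and all samples carried w and the ro-Gal4 driver. The other 6 arrays, 3 from sens mutant discs (w; sensDF2RES/sensDF2RES; sensE1/sensE1) and 3 from heterozygous controls (w; sensDF2RES/+; sensE1/+), gave a level against which a gene's value could be placed, and their spread also entered the estimate of error behind the tests. Values are log2 expression values per probe set, so that a difference of 1 is a 2-fold change, and every difference is Runt minus Runt G163R. Where 3 values are given for a group, they are those of replicates 1, 2 and 3 in that order.

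Runt is a member of the Runx family, whose proteins bind DNA together with a partner of the CBF-beta type, in flies Bgb or Bro, and can activate genes or, with corepressors such as Groucho, repress them. In the developing eye Runt marks the R7 and R8 photoreceptors, whose axons run past the lamina into the medulla, and the series concerns the targeting of these axons. The ro-Gal4 driver uses regulatory DNA of the homeobox gene rough, which is active in and behind the morphogenetic furrow and in outer photoreceptors. A transgene under it is therefore expected in part of the disc's cells only, while the arrays measured the whole eye part. In such bulk RNA, fewer cells of a type and less RNA per cell cannot be told apart. No array of the comparison lacked a Runt transgene, so a response shared by both forms is not visible, and a response to Runt G163R appears with the opposite sign. The transcript of run itself has no named probe set here, and the amount of transgene was not measured.

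Runt replicate 3 stood apart from Runt replicates 1 and 2. Over all probe sets Runt replicates 1 and 2 correlated at 0.998, while Runt replicate 3 correlated at 0.9957 and 0.9963 with them. With the Runt G163R arrays, Runt replicate 3 correlated at 0.9957 to 0.9971, and Runt replicates 1 and 2 at 0.9963 to 0.9973. By this measure Runt replicate 3 was no nearer the Runt G163R arrays than the other Runt arrays were. It did correlate more closely with Runt G163R replicates 2 and 3, at 0.9971 each, than with Runt replicates 1 and 2. No array duplicated another. At 50 tested probe sets Runt replicate 3 lay over 1 log2 unit above the other 5 arrays of the experiment, against 14 for the next array, Runt replicate 1. Results are given with and without Runt replicate 3. This was set in advance, as earlier results of these data had placed that array near the Runt G163R arrays. All 14 eye disc markers on the array, among them so, eya, gl and elav, passed the filter on low values, and none lay below 3 in all 6 arrays. Their mean level was 9.90 to 10.15 in Runt discs and 9.84 to 10.09 in Runt G163R discs. Array medians were 2.60 to 2.62, as many probe sets lie in a floor below 3, in which differences are compressed.

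With all 6 arrays, 5 of 11449 tested probe sets were called, which is 0.0437%, with 4 higher (0.0349%) and 1 lower (0.00873%) in Runt discs. A probe set was called when its Benjamini-Hochberg adjusted p, from a limma fit over all arrays of the series, was under 0.05. Leaving out Runt replicate 3 gave 119 calls (1.04%), of which 63 were higher (0.55%) and 56 lower (0.489%) in Runt discs, and the 5 were among them. An unadjusted p under 0.05 was met by 6.38% of tested probe sets with all arrays and by 6.57% without Runt replicate 3. No other single array had such an effect on the calls. Their number was 8 without Runt replicate 1, 12 without Runt G163R replicate 3, and 6 or 7 without Runt replicate 2, Runt G163R replicate 1 or Runt G163R replicate 2. Once Runt replicate 3 was left out, dropping Runt replicate 2 as well left 68 calls and dropping Runt G163R replicate 2 left 76, with the lone Runt array of the first fit assumed to vary like the other groups. On the 5 remaining arrays alone, where the spread of the sens arrays is not used, 18 were called. Of the 119 probe sets, 62 differed at least 2-fold, and 90 were assigned to a gene, 86 genes in all.

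**Figure D1:**
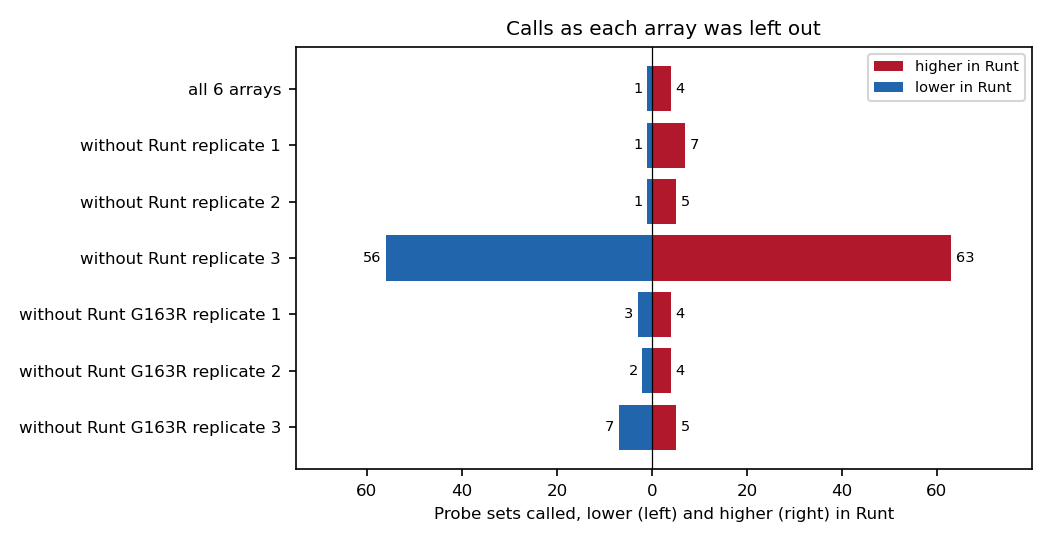
Number of probe sets called between Runt and Runt G163R discs with all 6 arrays and with each array left out in turn; bars to the right count probe sets higher in Runt and bars to the left those lower in Runt. Leaving out Runt replicate 3 gave 63 higher and 56 lower, against 4 and 1 with all arrays.

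The probe sets called with all 3 Runt arrays were dim. cGlr2, which encodes a cGAS-like receptor of the innate immune response, stood at 2.99, 3.09 and 2.85 in Runt discs, against 2.31, 2.31 and 2.31 in Runt G163R discs. The transcript rose by 0.67 with all arrays (SE 0.0581, adjusted p = 0.00186) and by 0.73 without Runt replicate 3 (SE 0.0491, adjusted p = 0.000259). The Runt G163R arrays lay at the floor and all 3 Runt arrays just above it. CG15147 was at 2.70, 2.94 and 2.82 in Runt discs, against 2.30, 2.25 and 2.43 in Runt G163R discs, with a rise of 0.49 over all arrays (SE 0.0657, adjusted p = 0.0476) and of 0.50 without Runt replicate 3 (adjusted p = 0.0204). CG13005 was at 2.49, 2.46 and 2.46 in Runt discs, against 2.97, 2.95 and 2.89 in Runt G163R discs. Its level fell by 0.47 with all arrays (SE 0.0276, adjusted p = 0.000144) and by 0.46 without Runt replicate 3 (adjusted p = 0.000293). The groups of cGlr2, CG15147 and CG13005 did not overlap, and every value of these genes lay near the floor. For tutl, whose immunoglobulin superfamily product acts in the spacing of R7 axons, the called probe set was at 4.09, 3.89 and 4.27 in Runt discs, against 3.26, 3.29 and 3.14 in Runt G163R discs. This probe set rose by 0.85 with all arrays (SE 0.083, adjusted p = 0.00382) and by 0.76 without Runt replicate 3 (adjusted p = 0.00126). It is the dimmest of 5 tested for tutl, of which the brightest over all 12 arrays stood at 7.07, 7.53 and 9.01 in Runt discs, against 6.81, 7.18 and 7.40 in Runt G163R discs and was called in neither fit, nor were the other 3. The remaining probe set, 1631489_at, has no gene named here, and was at 4.41, 5.02 and 4.58 in Runt discs, against 2.83, 2.77 and 2.97 in Runt G163R discs, with a rise of 1.81 over all arrays (SE 0.124, adjusted p = 0.000289).

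Runt replicate 3 took no part in the fit that gave the 119 calls. It was left out because earlier results of these data had placed it near the Runt G163R arrays. The 119 were also chosen for a large difference between the other arrays. Its position at them therefore follows in part from these choices, and is a description only. On a scale from 0 at the Runt G163R mean to 1 at the mean of Runt replicates 1 and 2, it lay at a median of 0.0915 (quartiles -0.0866 and 0.272), and at 105 of 119 probe sets it lay nearer the Runt G163R mean. It fell inside the range of the 3 Runt G163R arrays at 47, beyond that range on the side away from the other Runt arrays at 25, between the groups at 41, inside the range of Runt replicates 1 and 2 at 3 and beyond them at 3. The median was 0.126 for probe sets higher in Runt and 0.0255 for those lower. The groups stayed apart with Runt replicate 3 included at 47 of the 119, 29 higher and 18 lower. That is 39.5% of them, against 42.3% of the 2557 tested probe sets (22.3%) where Runt replicates 1 and 2 did not overlap Runt G163R, and 9.45% of all tested probe sets separated the groups with all arrays.

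**Figure D2:**
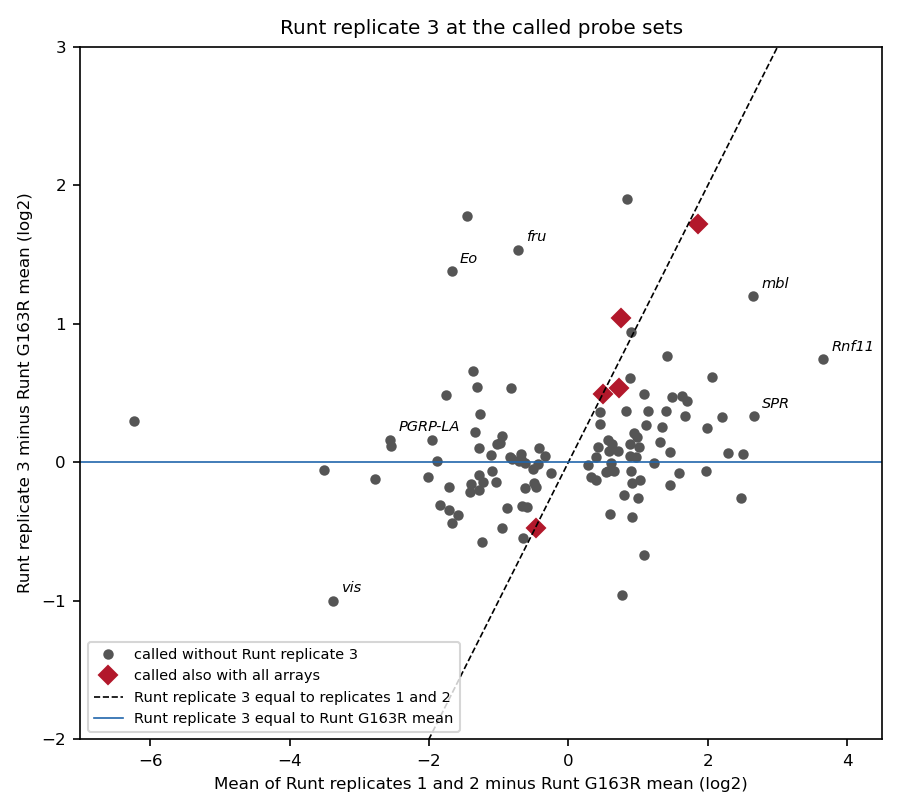
Each point is a probe set called between Runt and Runt G163R discs; the horizontal axis is the mean of Runt replicates 1 and 2 minus the Runt G163R mean and the vertical axis is Runt replicate 3 minus the same mean, both in log2 units. Most points lie along the horizontal line, where Runt replicate 3 equals the Runt G163R mean, and the 5 probe sets also called with all arrays (diamonds) lie near the dashed line, where it equals the other Runt arrays.

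Genes of cell surface proteins that act in axon contact and targeting were among those higher in Runt replicates 1 and 2. klg encodes Klingon, a homophilic adhesion protein of the immunoglobulin superfamily required for R7 development, and stood at 8.59, 8.97 and 7.45 in Runt discs, against 6.77, 7.31 and 7.27 in Runt G163R discs. It rose by 1.67 without Runt replicate 3 (SE 0.212, adjusted p = 0.00854), and the difference with it was 1.22 (SE 0.335, adjusted p = 0.569), with all 3 Runt arrays above all Runt G163R arrays. The dimmer of the tested probe sets of gogo, the R8 axon receptor Golden goal, was at 6.68, 6.95 and 6.35 in Runt discs, against 5.96, 5.98 and 6.00 in Runt G163R discs. This probe set rose by 0.83 without Runt replicate 3 (SE 0.13, adjusted p = 0.0204), and with it the difference was 0.68 (adjusted p = 0.377). The groups did not overlap, and Runt replicate 3 lay between them. The brighter gogo probe set was at 10.97, 10.99 and 10.49 in Runt discs, against 10.28, 10.53 and 10.70 in Runt G163R discs. That one was called in neither fit, with a difference of 0.48 without Runt replicate 3 (adjusted p = 0.15).

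kek2, a Kekkon family gene with leucine-rich repeats and an immunoglobulin domain, was at 3.83, 3.74 and 2.94 in Runt discs, against 2.87, 2.92 and 2.91 in Runt G163R discs. It rose by 0.89 without Runt replicate 3 (SE 0.0548, adjusted p = 0.000185) and kept its call in all 13 alternatives that tested it on that fit. A further alternative, a stricter filter on low values, left kek2 out as too dim. Its difference with all arrays was 0.60 (adjusted p = 0.658), with Runt replicate 3 just above the Runt G163R arrays. side-II, of the Sidestep family of axon guidance receptors, was at 3.61, 4.36 and 2.60 in Runt discs, against 2.58, 2.50 and 2.51 in Runt G163R discs. It rose by 1.45 (SE 0.166, adjusted p = 0.0047), a second probe set rose by 1.31 (adjusted p = 0.000196) and the dimmest was not called (difference 0.89, adjusted p = 0.431). With all arrays the brightest probe set differed by 0.99 (adjusted p = 0.683), and the Runt G163R arrays lay in the floor. The neuroligin gene Nlg3, of a family of synaptic adhesion proteins, was at 3.55, 3.80 and 2.94 in Runt discs, against 2.64, 2.59 and 2.97 in Runt G163R discs. The transcript rose by 0.94 (SE 0.131, adjusted p = 0.0123), with a difference of 0.70 over all arrays (adjusted p = 0.569). For Dscam2, a homophilic receptor of the visual system, the probe set that rose, by 0.39 without Runt replicate 3 (adjusted p = 0.0167) against a difference of 0.22 with it (adjusted p = 0.883), was near the floor at 3.13, 3.24 and 2.67 in Runt discs, against 2.72, 2.76 and 2.90 in Runt G163R discs. The brightest of its 5 probe sets, at 6.85, 7.02 and 7.06 in Runt discs, against 5.97, 5.91 and 6.63 in Runt G163R discs, separated the groups with all arrays and was called in neither fit (adjusted p = 0.526 without and 0.581 with Runt replicate 3).

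The receptor tyrosine phosphatase gene Ptp10D, whose product acts on axons at the midline, gave opposite results from its probe sets. One was at 8.12, 8.46 and 6.41 in Runt discs, against 5.91, 6.26 and 6.09 in Runt G163R discs. This probe set rose by 2.21 without Runt replicate 3 (SE 0.343, adjusted p = 0.0204), with a difference of 1.58 over all arrays (adjusted p = 0.658). The other was at 6.49, 7.10 and 8.35 in Runt discs, against 7.92, 8.13 and 8.33 in Runt G163R discs, and fell by 1.33 without Runt replicate 3 (SE 0.241, adjusted p = 0.0407), with a difference of -0.82 over all arrays (adjusted p = 0.815). Runt replicate 3 lay within 0.33 of the Runt G163R mean in both, and no direction can be given for the gene.

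**Figure D3:**
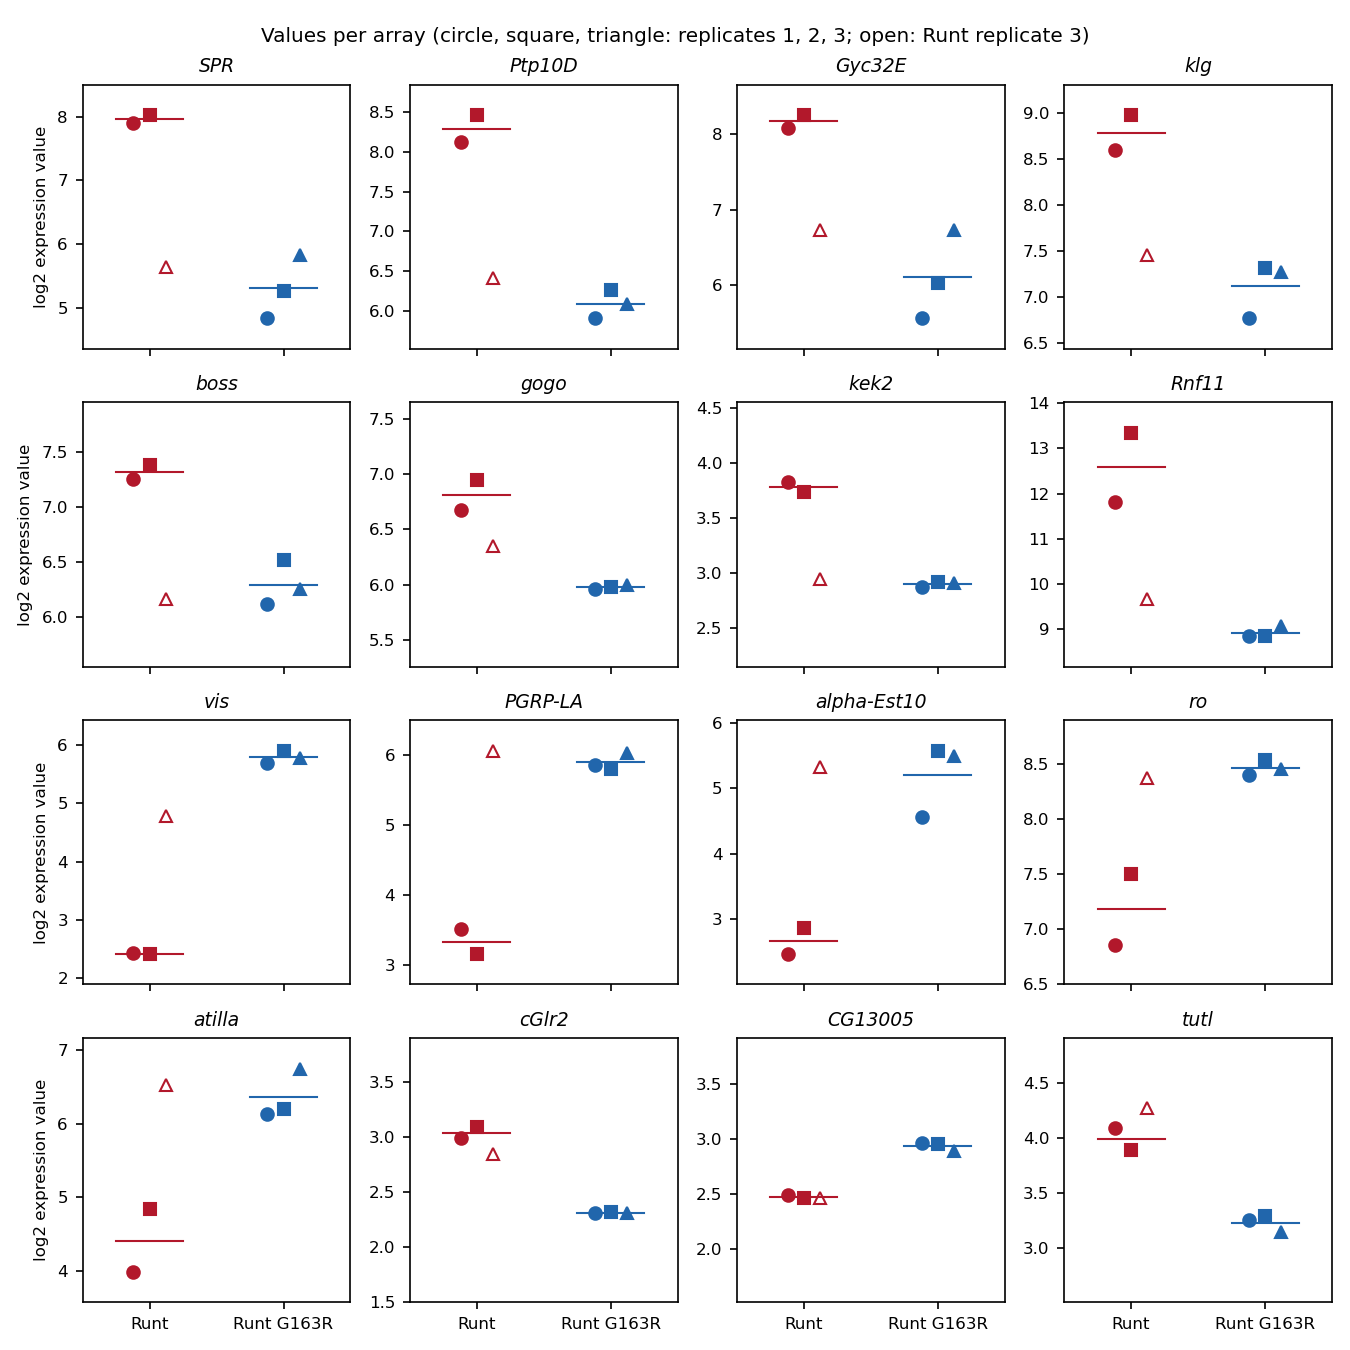
Log2 expression value of 16 genes in each array, Runt left and Runt G163R right in every panel; circles, squares and triangles are replicates 1, 2 and 3, Runt replicate 3 is open, lines are the mean of Runt replicates 1 and 2 and of the 3 Runt G163R arrays, and each panel has its own scale. Runt replicate 3 sits at or near the Runt G163R arrays for most genes, and with the other Runt arrays for cGlr2, CG13005 and tutl.

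Among genes of photoreceptor fate, boss and ro passed the test, in opposite directions and without Runt replicate 3 only. boss encodes the ligand with which R8 induces its neighbour to become R7, through the receptor Sevenless. It was at 7.25, 7.38 and 6.17 in Runt discs, against 6.11, 6.51 and 6.25 in Runt G163R discs. The transcript rose by 1.02 without Runt replicate 3 (SE 0.164, adjusted p = 0.0224), against a difference of 0.64 with all arrays (adjusted p = 0.771). Runt replicate 3 lay inside the Runt G163R range, and the call was lost in 7 of 14 alternatives on the fit without it. ro, the homeobox gene whose regulatory DNA drives the transgenes, was at 6.86, 7.50 and 8.37 in Runt discs, against 8.40, 8.53 and 8.45 in Runt G163R discs. It fell by 1.28 without Runt replicate 3 (SE 0.201, adjusted p = 0.0204), and the difference with all arrays was -0.89 (adjusted p = 0.71), with Runt replicate 3 just under the Runt G163R arrays. The call of ro, too, was lost in some alternatives.

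The other fate and targeting genes looked at were not called. loaf, a gene of R7 axon targeting, was at 9.61, 9.97 and 9.14 in Runt discs, against 8.62, 8.92 and 9.27 in Runt G163R discs, a difference of 0.86 without Runt replicate 3 (adjusted p = 0.0842) and 0.64 with it (adjusted p = 0.683). Of the Spalt zinc-finger genes of R7 and R8, salm was at 10.52, 10.57 and 9.21 in Runt discs, against 9.71, 10.08 and 9.84 in Runt G163R discs, a difference of 0.67 without Runt replicate 3 (adjusted p = 0.148) and 0.22 with it (adjusted p = 1). salr was at 8.47, 8.83 and 7.88 in Runt discs, against 7.65, 7.92 and 8.04 in Runt G163R discs, a difference of 0.78 without that array (adjusted p = 0.219) and 0.53 with it (adjusted p = 0.787). For loaf and salr Runt replicate 3 lay inside the Runt G163R range, and for salm it was the lowest of the 6 arrays. The proneural gene ato differed by -0.09, sens by 0.14, the R7 gene pros by 0.28 and the pan-neuronal gene elav by 0.44 without Runt replicate 3, and by -0.23, 0.03, 0.20 and 0.47 with it, each with an adjusted p of 0.768 or more. Of the Runx partners and corepressors, 5 of 8 were tested, and none passed. lz, the other Runx gene of the eye, was at 10.65, 10.72 and 10.51 in Runt discs, against 10.14, 10.55 and 10.72 in Runt G163R discs, and the corepressor gene gro at 10.53, 10.62 and 10.93 in Runt discs, against 10.28, 10.47 and 10.67 in Runt G163R discs.

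Several receptor and signalling genes rose in Runt replicates 1 and 2. SPR, a G-protein-coupled receptor for sex peptide and myoinhibitory peptides, was at 7.91, 8.03 and 5.64 in Runt discs, against 4.83, 5.26 and 5.83 in Runt G163R discs. It rose by 2.66 without Runt replicate 3 (SE 0.334, adjusted p = 0.0081), and the difference with it was 1.88 (adjusted p = 0.658). Gyc32E, a receptor guanylyl cyclase, was at 8.09, 8.25 and 6.72 in Runt discs, against 5.56, 6.03 and 6.73 in Runt G163R discs. The gene rose by 2.06 (SE 0.341, adjusted p = 0.0262), with a difference of 1.58 over all arrays (adjusted p = 0.569). For both genes Runt replicate 3 lay inside the Runt G163R range. Rnf11, a small RING finger protein of chromosome 4, was at 11.82, 13.34 and 9.67 in Runt discs, against 8.87, 8.85 and 9.07 in Runt G163R discs. The transcript rose by 3.65 (SE 0.442, adjusted p = 0.00683), with a difference of 2.68 over all arrays (adjusted p = 0.569). Its other probe set was at 9.56, 10.12 and 8.15 in Runt discs, against 7.16, 7.24 and 7.40 in Runt G163R discs, also without overlap, and was not called (adjusted p = 0.0738). A probe set of mbl, the splicing regulator Muscleblind, was at 7.23, 7.39 and 5.86 in Runt discs, against 4.70, 4.71 and 4.56 in Runt G163R discs. This probe set rose by 2.65 (SE 0.425, adjusted p = 0.0224), with a difference of 2.17 over all arrays (adjusted p = 0.377). None of the other 5 probe sets of mbl was called, and they differed by -0.15 to 0.38 without Runt replicate 3.

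Among enzymes and other genes, the cytochrome P450 gene Cyp6a17 was at 7.09, 7.18 and 6.37 in Runt discs, against 5.99, 6.06 and 5.95 in Runt G163R discs. The transcript rose by 1.14 without Runt replicate 3 (SE 0.15, adjusted p = 0.00927), with a difference of 0.88 over all arrays (adjusted p = 0.415). Osi4, of the Osiris family of insect membrane proteins, was at 6.59, 7.07 and 5.82 in Runt discs, against 5.61, 5.24 and 5.20 in Runt G163R discs. The gene rose by 1.48 (SE 0.19, adjusted p = 0.00854), with a difference of 1.15 over all arrays (adjusted p = 0.415). For Cyp6a17 and Osi4 all 3 Runt arrays lay above the Runt G163R arrays. A dim probe set of fzy, the Cdc20 activator of the anaphase-promoting complex, was at 3.52, 2.87 and 4.26 in Runt discs, against 2.29, 2.44 and 2.35 in Runt G163R discs. This probe set rose by 0.84 without Runt replicate 3 (adjusted p = 0.033; difference 1.19 and adjusted p = 0.372 with it), while the bright one, at 10.28, 10.16 and 10.08 in Runt discs, against 10.39, 10.30 and 10.06 in Runt G163R discs, did not pass the test. Genes without an assigned role here rose as well: CG15236 by 2.51, CG33143 by 2.48, CG17739 by 1.99, CG42458 by 1.98, CG7650 by 1.71, CG14598 by 1.59 and CG5326 by 1.46. CG15236, at 6.32, 6.59 and 4.01 in Runt discs, against 3.84, 3.82 and 4.18 in Runt G163R discs, kept its call in all 14 alternatives on the fit without Runt replicate 3. None of these was called with all arrays, where their differences were 0.92 to 1.69. Some dimmer probe sets were called in neither fit. Without Runt replicate 3 these differed by 1.14 and 0.19 for CG7650 and by 0.53 for CG42458.

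The largest falls were at 2 probe sets with no gene named here. Probe set 1626434_s_at was at 4.45, 4.84 and 11.17 in Runt discs, against 10.56, 10.94 and 11.11 in Runt G163R discs, a fall of 6.23 without Runt replicate 3 (SE 0.325, adjusted p = 5.57e-05) and a difference of -4.05 with it (adjusted p = 0.71). Runt replicate 3 was the highest of the 6 arrays there, and the sens arrays were low, with a mean of 4.1 over the 6. Probe set 1624819_s_at was at 10.17, 10.10 and 13.59 in Runt discs, against 13.45, 13.79 and 13.68 in Runt G163R discs, a fall of 3.50 without Runt replicate 3 (SE 0.141, adjusted p = 8.62e-06) and a difference of -2.35 with it (adjusted p = 0.658), with Runt replicate 3 inside the Runt G163R range. vis, a homeobox gene of the TGIF class, was at 2.42, 2.41 and 4.79 in Runt discs, against 5.69, 5.90 and 5.78 in Runt G163R discs. The gene fell by 3.38 (SE 0.0612, adjusted p = 1.44e-08), with a difference of -2.58 over all arrays (adjusted p = 0.27). In vis Runt replicate 3 lay between the groups, nearer Runt G163R. PGRP-LA, a peptidoglycan recognition protein gene, was at 3.51, 3.16 and 6.06 in Runt discs, against 5.86, 5.80 and 6.02 in Runt G163R discs. The transcript fell by 2.56 (SE 0.288, adjusted p = 0.00467), against a difference of -1.65 with all arrays (adjusted p = 0.724). alpha-Est10, a carboxylesterase gene, was at 2.47, 2.87 and 5.32 in Runt discs, against 4.56, 5.57 and 5.50 in Runt G163R discs. The gene fell by 2.54 (SE 0.401, adjusted p = 0.0207), against a difference of -1.66 with all arrays (adjusted p = 0.744). Runt replicate 3 lay just above the Runt G163R arrays in PGRP-LA and within their range in alpha-Est10.

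Of the other falls, Root, the gene of the ciliary rootlet protein Rootletin, was at 4.14, 3.19 and 5.56 in Runt discs, against 5.54, 5.56 and 5.54 in Runt G163R discs. The transcript fell by 1.88 (SE 0.277, adjusted p = 0.0161), against a difference of -1.25 with all arrays. mthl2, a methuselah-like G-protein-coupled receptor, was at 3.87, 4.55 and 5.74 in Runt discs, against 5.64, 6.21 and 5.90 in Runt G163R discs. The gene fell by 1.71 (SE 0.22, adjusted p = 0.00854), against a difference of -1.20 with all arrays. Eo, the ecdysone oxidase gene, was at 2.26, 2.34 and 5.36 in Runt discs, against 3.83, 4.58 and 3.53 in Runt G163R discs. The transcript fell by 1.68 (SE 0.235, adjusted p = 0.0126), against a difference of -0.66 with all arrays. In Eo the Runt group held both the lowest and the highest arrays. Cpr51A, a cuticle protein gene, averaged 10.43 ± 0.485 in Runt discs and 10.96 ± 0.0444 in Runt G163R discs (SD, n = 3 each). The gene fell by 0.81 (SE 0.0912, adjusted p = 0.00467), against a difference of -0.53 with all arrays. CG3552 fell by 2.01, CG4259 by 1.71, CG8245 by 1.67, CG3434 by 1.41, flz, a serine protease gene, by 1.40, be by 1.27 and CG4702 by 1.27. With all arrays these 7 genes differed by -0.73 to -1.38, and neither they nor Root, mthl2, Eo or Cpr51A were called. A dimmer probe set of be was called in neither fit, with a difference of -0.25 without Runt replicate 3.

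A probe set of fru, the BTB zinc-finger gene of sex-specific neural development, was at 2.56, 2.83 and 4.96 in Runt discs, against 3.59, 3.46 and 3.21 in Runt G163R discs. It fell by 0.72 without Runt replicate 3 (SE 0.108, adjusted p = 0.0165), while with all arrays the difference was 0.03 (adjusted p = 1). It was the 1 probe set of 119 whose sign differed between the fits, and the Runt array left out was the highest of the 6. None of the other 4 probe sets of fru was called, the brightest at a difference of -0.69 (adjusted p = 0.0886).

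The other called genes, named after their values were seen, were mostly of smaller difference. Higher in Runt discs without Runt replicate 3 were rig, a cofactor of ecdysone receptor signalling, by 0.57 (SE 0.0508, adjusted p = 0.00126), sxc, the O-GlcNAc transferase gene, by 0.62, Gart, of purine synthesis, by 0.59, obst-B, a chitin-binding protein gene, by 0.61, and the GTPase gene RhoU by 0.80. Kap3, of the kinesin-II motor, rose by 0.66, a probe set of the ankyrin gene Ank2 (not its brightest) by 0.46, one of X11Lbeta, an adaptor of the Mint family, likewise by 0.90 and Spt20, of the SAGA complex, by 0.88. With all 3 Runt arrays kept, rig stood at 9.45, 9.41 and 9.02 in Runt discs, against 8.86, 8.87 and 8.84 in Runt G163R discs, sxc at 11.76, 11.82 and 11.30 in Runt discs, against 11.13, 11.15 and 11.24 in Runt G163R discs and Spt20 at 4.59, 4.88 and 4.46 in Runt discs, against 3.76, 4.03 and 3.76 in Runt G163R discs. These 3 genes separated the groups with all arrays, without passing the test (adjusted p = 0.389, 0.516 and 0.2). With all arrays the differences were 0.28 for obst-B, 0.45 for RhoU, 0.41 for Kap3, 0.42 for Gart, 0.40 for Ank2 and 0.91 for X11Lbeta, none of them called, and the groups overlapped in obst-B, RhoU, Kap3 and Gart. Lower were Lsd-2, a lipid droplet protein of the perilipin family, by 0.62 (SE 0.078, adjusted p = 0.0081), fbp, the fructose-1,6-bisphosphatase gene, by 0.50, grass, a serine protease of Toll activation, by 1.10, Ddr, the discoidin domain receptor gene, by 1.03 and tay by 0.98. Near the floor, the gustatory receptor gene Gr64a fell by 0.94, the monocarboxylate transporter gene Mct1 by 0.88 and clumsy, an ionotropic glutamate receptor gene, by 0.71. With all arrays these 8 genes were not called, and differed by -0.42 (Lsd-2), -0.38 (fbp), -0.72 (grass), -0.74 (Ddr), -0.60 (tay), -0.79 (Gr64a), -0.70 (Mct1) and -0.47 (clumsy). Lsd-2 was at 10.71, 10.86 and 11.40 in Runt discs, against 11.37, 11.39 and 11.45 in Runt G163R discs, with Runt replicate 3 inside the Runt G163R range, and Mct1 at 2.16, 2.16 and 2.72 in Runt discs, against 2.89, 3.22 and 3.02 in Runt G163R discs, with Runt replicate 3 between the groups.

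The sens arrays gave a level from another cross. Of the 63 probe sets higher in Runt replicates 1 and 2, the mean of the 6 sens arrays lay nearer the Runt G163R mean at 51. It lay nearer the mean of Runt replicates 1 and 2 at 12. Of the 56 lower ones it lay nearer Runt G163R at 24 and nearer Runt replicates 1 and 2 at 32. No share over all tested probe sets was taken beside these counts. The mean also pools sens mutants and controls, which lay far apart at some genes, such as boss (2.42 and 6.46) and SPR (2.32 and 5.21). Of the rises, side-II, kek2 and mbl had a mean over the 6 sens arrays nearer Runt G163R, with side-II at 2.49 in sens mutants and 2.53 in their controls, and mbl at 4.58 and 4.84. Of the falls, vis, PGRP-LA and mthl2 had a sens level nearer Runt replicates 1 and 2, with vis at 2.40 in sens mutants and 2.41 in their controls, PGRP-LA at 3.41 and 3.12, and mthl2 at 3.33 and 2.75. For ro the sens mutants, at 8.22, were nearer Runt G163R, and their controls, at 7.55, were nearer Runt replicates 1 and 2. The crosses differ in genotype beyond the transgenes, so this placing is a description.

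Of the 28 lists of genes by function, 14 had a called member without Runt replicate 3, and 2, the immunoglobulin superfamily and innate immunity lists, had a called member with all arrays. Several lists were written with called genes of these data known and hold them for that reason, so their counts are no evidence for a theme. Over all lists 21 of 644 tested genes were called without Runt replicate 3, beside 1.04% of all tested probe sets. A gene counts as called where any of its probe sets is, and for 5 of the 21 (gogo, Dscam2, tutl, fzy and fru) the brightest probe set was not. Of 62 axon guidance and targeting genes, 50 were tested, and gogo and Dscam2 rose by a dimmer probe set, while Ptp10D had probe sets called in both directions. Their median difference was 0.06 without Runt replicate 3 and 0.09 with it, against 0.0042 and -0.00073 over all tested probe sets. In the immunoglobulin superfamily list 48 of 69 were tested, 3 rose (klg, kek2 and tutl) and none fell, with medians of 0.02 and 0.02. Of the 65 members on the array, 35 lay below 3 in all 6 arrays. The G-protein-coupled receptor list had 25 of 53 tested, with SPR and boss higher and mthl2 lower, and medians of 0.01 and -0.0011. In the innate immunity list (29 of 57 tested) cGlr2 rose and PGRP-LA fell, and in the esterase and lipase list (15 of 30) Nlg3 rose and alpha-Est10 fell. A single member rose in each of the R8 and proneural (boss, of 10 tested), EGFR (kek2, of 14), cyclic nucleotide (Gyc32E, of 19), RING (Rnf11, of 26), detoxification (Cyp6a17, of 56) and cell cycle (fzy, of 27) lists. A single member fell in the photoreceptor and cone list (ro, of 15) and in the dosage compensation and sex determination list (fru, of 10). In the tyrosine phosphatase list (12 tested) Ptp10D alone was called, in both directions.

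No member was called in either fit in the R7 list (10 of 13 tested), the retinal determination list (10 of 12), the Notch and Enhancer of split list (19 of 26), the Hedgehog, Dpp and Wingless list (12 of 20), the neuronal list (22 of 33) or the phototransduction list (15 of 32). The same held for the ecdysone (24 tested), cell death (14), JNK and JAK/STAT (15), heat shock (10), eye pigment (16), ribosomal protein (27) and oxidative phosphorylation (29) lists and for the Runx partners (5). The R7 list had the highest median without Runt replicate 3, at 0.20, and 0.18 with all arrays, with salm and salr its members of smallest p. In the neuronal list Appl, the amyloid precursor protein-like gene, averaged 11.25 ± 0.228 in Runt discs and 10.65 ± 0.251 in Runt G163R discs (SD, n = 3 each), and nSyb, the synaptobrevin gene, was at 7.45, 7.45 and 7.27 in Runt discs, against 7.07, 6.75 and 7.11 in Runt G163R discs. Neither was called (adjusted p = 0.326 and 0.434 without Runt replicate 3, 0.482 and 0.687 with it), and the groups did not overlap in either. Of 27 ribosomal protein genes tested, differences without Runt replicate 3 ran from -0.07 to 0.04. In the oxidative phosphorylation list 4 of 29 were above 0 without Runt replicate 3 and 5 with all arrays. Over all tested probe sets 53.8% and 49.1% were above 0. The median of the list was -0.05 without Runt replicate 3 and -0.07 with it. In the cell death and JNK lists, egr, the TNF gene Eiger, was at 9.34, 9.45 and 8.92 in Runt discs, against 8.79, 8.86 and 9.02 in Runt G163R discs, a difference of 0.50 without Runt replicate 3 (adjusted p = 0.11) and 0.35 with it (adjusted p = 0.744). Among the other members of smallest p, none called, the differences without Runt replicate 3 were 0.58 for chp, a photoreceptor surface protein, 0.12 for Gbeta76C, of phototransduction, 0.31 for the Notch antagonist H, 0.66 for the nuclear receptor gene Hr4, 0.20 for the Dpp receptor gene tkv, -0.20 for the Hedgehog transducer smo and -0.15 for so. Over all arrays they were 0.43, 0.09, 0.41, 0.57, 0.15, -0.17 and -0.13 in the same order. Without and with Runt replicate 3, a dimmer probe set of H differed by -0.08 and -0.02 and one of egr by 0.38 and 0.09. Dimmer ones of Hr4 differed by 0.90 and 1.13, and by -0.012 and -0.0071. None of these was called. The mean level of the Notch list was 9.41 in Runt replicate 3, against 9.76 to 9.79 in the other Runt arrays and 9.70 to 9.77 in Runt G163R, so that array stood below all others.

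**Figure D4:**
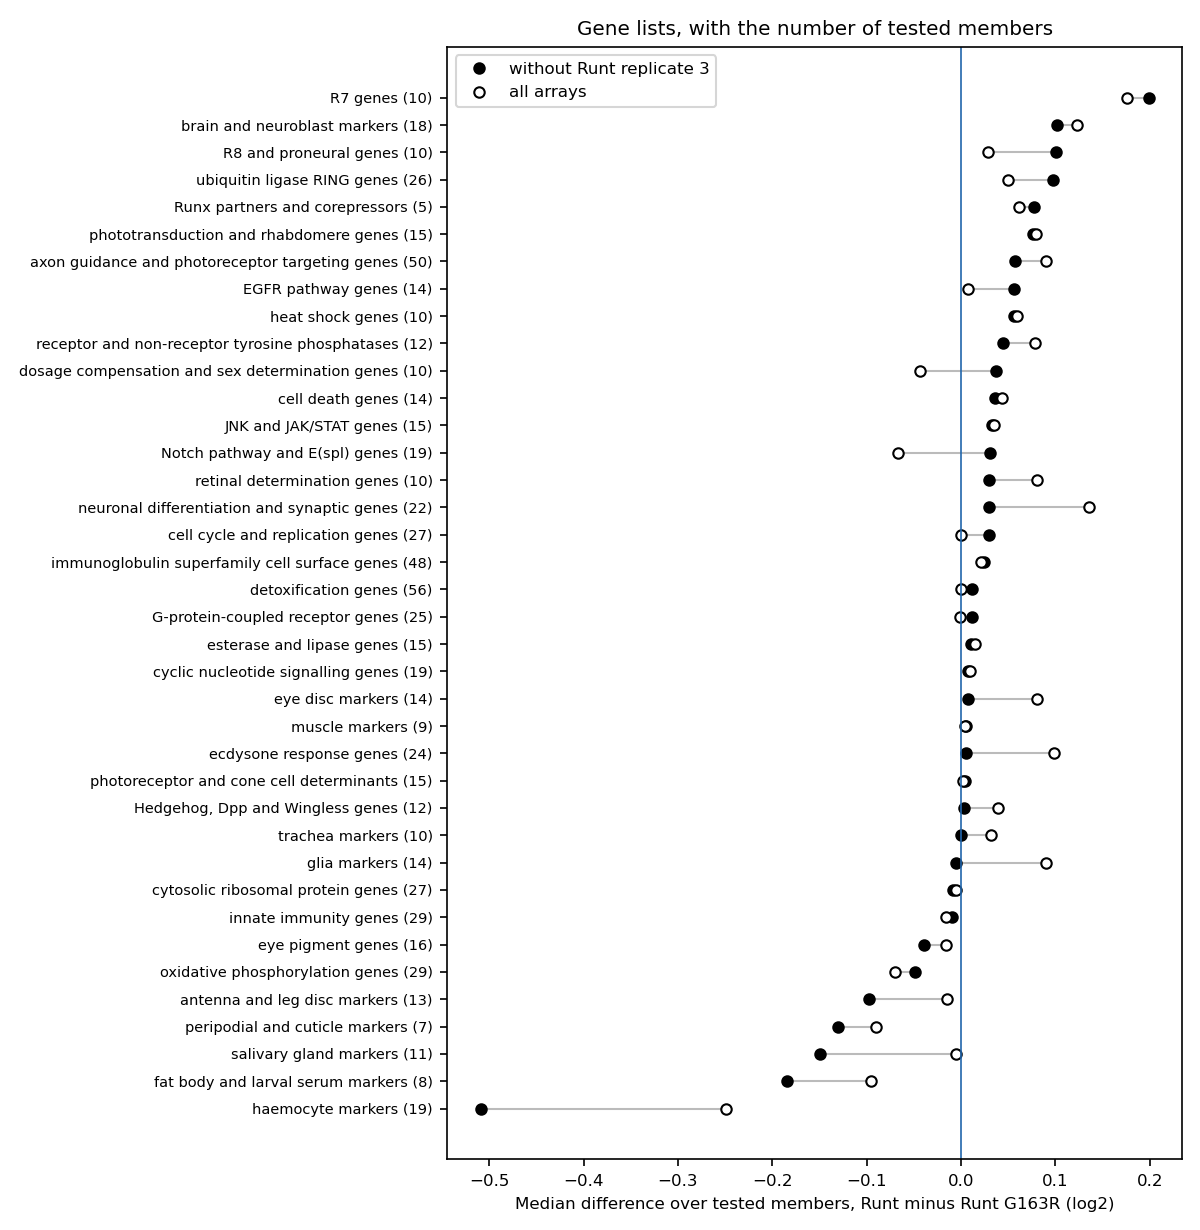
Median difference, Runt minus Runt G163R in log2 units, over the tested members of each of 38 gene lists, without Runt replicate 3 (filled) and with all arrays (open); the number of tested members follows each name. Most medians lie within 0.1 of 0, and the haemocyte markers lie lowest, at -0.51 and -0.25.

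Markers of other tissues moved with the comparison in part. Haemocyte markers lay at a mean level of 8.29 to 8.43 in Runt replicates 1 and 2 and 8.88 in Runt replicate 3, against 8.66 to 8.97 in Runt G163R. Their median difference was -0.51 without Runt replicate 3 and -0.25 with it. Of 19 tested markers, 4 were above 0 without Runt replicate 3, beside 53.8% of all tested probe sets. Among the 4 was lz, which the eye also expresses, and 1 marker was called, as lower in Runt. This was atilla, a marker of lamellocytes, at 3.99, 4.84 and 6.52 in Runt discs, against 6.13, 6.20 and 6.75 in Runt G163R discs, a fall of 1.95 without Runt replicate 3 (SE 0.324, adjusted p = 0.0265). With all arrays its groups overlapped and the difference was -1.25 (adjusted p = 0.765). The defining markers Hml, at 7.08, 7.32 and 7.61 in Runt discs against 8.68, 7.74 and 7.38 in Runt G163R discs, and PPO2, at 10.51, 9.50 and 11.66 against 12.17, 11.67 and 10.07, were not called, and the groups overlapped with all arrays kept. Haemocyte markers were thus detected in all 6 arrays at differing levels, and their part in the called genes, the fall of PGRP-LA and grass among them, was not tested. Salivary gland markers were at a mean of 3.52 to 3.58 in Runt replicates 1 and 2 and 4.79 in Runt replicate 3, against 3.41 to 4.88 in Runt G163R. The glue gene Sgs3 was at 2.75, 3.59 and 6.43 in Runt discs and at 2.67, 6.45 and 3.98 in Runt G163R discs, and was not called; sens is in that list too. Fat body markers ranged from 3.37 to 4.02 in Runt discs and from 3.51 to 4.96 in Runt G163R discs. The medians of the brain, glia, antenna and leg, muscle and trachea markers lay between -0.10 and 0.10 without Runt replicate 3, with no called member. The peripodial and cuticle list had a median of -0.13 and 1 fall, Cpr51A. The part of these tissues in the called genes was not tested.

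Called genes lay on every arm. Without Runt replicate 3, the called share of tested 1-gene probe sets was 0.911% on X, 1.52% on 2L, 0.832% on 2R, 0.888% on 3L, 0.876% on 3R and 1.32% on chromosome 4, the last from Rnf11 alone of 76 tested. On 2L 13 were higher and 11 lower.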

How the data were processed

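Values deposited by the authors are on a log2 scale, as their range and the near-equal quantiles of the arrays show. Tools listed in the submitters' processing notes are MAS5, GCRMA and affy, without role or version. How the background was corrected is not given in the sources used here. The labels' protocols name Trizol extraction and biotin labelling. The 18952 probe sets include 183 controls, left out here. In the platform annotation 13647 have 1 gene, 402 have several and 4720 are unnamed, and 13544 were matched by gene identifier to RefSeq (Release 6 plus ISO1 MT), used for names and chromosome arms only.

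Probe sets that exceeded their array's 40th percentile in at least 3 arrays were kept, 11449 with 8210 genes. Group means were fitted to all 12 arrays, and to the 11 without Runt replicate 3, with limma 3.58.1 in R 4.3.3 (lmFit, eBayes with an intensity trend), so the sens arrays add to the estimate of spread. Tests were two-sided and adjusted by Benjamini-Hochberg over all kept probe sets, with calls under 0.05. All adjusted p-values are from limma, and SE is that of the moderated fit. The labels do not say whether replicates are separate crosses or animals, so the p-values reflect only how these samples vary, possibly for technical reasons, and the number of arrays limits the precision. The fit was tested on simulated data in which no array stood apart. That test therefore does not bear on the effect of Runt replicate 3.

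Genes take the value of their brightest probe set (highest mean over the 12 arrays), or of a called one where the brightest is not called. Named are run, ro, boss, sens, loaf, ato, pros and elav, genes called with all arrays, the 15 largest rises and the 15 largest falls called without Runt replicate 3, called members of 38 lists (1006 genes, 784 with a probe set, 644 tested), and members of smallest p in function lists without a call. Hml, PPO2 and Sgs3 are given as defining markers, and the text marks other genes named outside this rule. The comparison, the lists and the rule were chosen with earlier results of these data known, so none is independent support. Filter, normalization, variance model, weights, arrays, replicate block, probe set summary and single replicates were each varied.

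Same-numbered Runt and Runt G163R arrays deviated from their group means with correlations of 0.26, -0.12 and 0.06. For differently numbered arrays the correlations ran from -0.21 to 0.18. The numbers were not taken to pair the samples in the main fits, though so few arrays cannot settle whether they do.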

Additional observations from a re-analysis of the deposited data

How the results depend on the processing

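With all 6 arrays, the 5 calls became 464 under array weights, 0 under a filter at the 60th percentile (limma, with 575 at an unadjusted p under 0.05), 1 on the arrays of the Runt experiment alone and 1 with the replicate block, and between 6 and 119 when single replicates were left out. The array weight was 0.443 for Runt replicate 3, against 0.827 and 2.61 for Runt replicates 1 and 2. Runt G163R replicates 1, 2 and 3 had weights of 0.544, 5.25 and 0.931. The lowest weight of the series was 0.264, of sens control replicate 1. Without Runt replicate 3, the 119 calls became 272 under array weights (118 shared), 18 on the arrays of the Runt experiment alone (16 shared) and 41 with the replicate block (25 shared), and between 68 (without Runt replicate 2) and 107 when a further replicate was left out. On the Runt arrays alone, 7 named genes kept their call: vis, cGlr2, kek2, mbl, CG13005, PGRP-LA and CG15236, with adjusted p of 0.00568 to 0.0389. The other settings gave 4 or 5 calls with all arrays and 92 to 125 without Runt replicate 3. At the 60th percentile, the called probe sets of cGlr2, CG15147, CG13005 and tutl were too dim to be kept. They were therefore not tested under that filter. Beyond this, the cause of these changes was not tested. On the fit without Runt replicate 3, most called genes named by the rule lost their call in some alternatives, gogo, Ptp10D, mbl, Gyc32E and ro among them. By contrast vis, kek2, cGlr2, CG13005 and CG15236 kept theirs wherever they were tested. No named gene changed sign under an alternative run on the fit that called it, but fru, at -0.72 without Runt replicate 3, was at 0.03 with all arrays. Of the uncalled genes, sens ranged from -0.0843 to 0.145 over all arrays when single replicates were left out, and was -0.0322 without Runt G163R replicate 1. The difference of ato became 0.046 under array weights with all arrays and 0.0845 without Runt replicate 3, where leaving out further replicates gave -0.206 to 0.131. Whether the replicate numbers pair the samples is not known, so it cannot be said what a call lost under the block means.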

Other observations

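Runt replicate 3 differed from all 5 other arrays of the experiment at genes outside the comparison. Of 19 tested genes of the Notch and Enhancer of split list it was the lowest of the 6 arrays at 13, at 6 of them by over 0.3, and the highest at 2. No share over all tested probe sets was taken for these counts. The 13 include E(spl)m5-HLH, E(spl)m6-BFM and BobA, which lay near the floor in all 6 arrays and differed little between them. Brd, of the Bearded family, was at 9.81, 9.70 and 8.57 in Runt discs, against 9.97, 10.18 and 9.79 in Runt G163R discs. E(spl)malpha-BFM was at 11.97, 11.85 and 10.48 in Runt discs, against 12.11, 11.55 and 11.74 in Runt G163R discs, and E(spl)m3-HLH at 11.92, 11.83 and 11.03, against 11.93, 11.87 and 12.01. Genes with high values in it included zormin, a muscle Z-disc protein gene, at 6.26, 6.73 and 8.15 in Runt discs, against 6.17, 6.21 and 6.12 in Runt G163R discs, and Dnaaf6, a dynein assembly factor gene, at 2.63, 2.59 and 4.60, against 2.60, 2.58 and 2.62. These genes were chosen after their values were seen, and the cause was not tested.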
